A study of Homo sapiens with 6 samples.

Results

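The clustered protocadherins are cadherin family adhesion proteins whose genes lie side by side in the alpha, beta and gamma clusters on chromosome 5. They were taken as every gene whose symbol on the array starts with PCDHA, PCDHB or PCDHG, with pseudogenes left out. This gave 53 of the 18155 genes read on the array, namely 15 alpha, 16 beta and 22 gamma genes, which are all 53 protein-coding members in RefSeq. They were read by 85 probe sets annotated to 1 of them alone, of 49293 probe sets tested, and by 8 further probe sets annotated to several of them. A probe set is a group of short oligonucleotides that together read a stretch of transcript. Each gene was represented by its brightest single-gene probe set, judged by the mean of the 6 arrays.

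In these clusters every variable exon has its own promoter, and a cell uses only some of them. In the alpha and gamma clusters the chosen exon is spliced to constant exons that all genes of the cluster share, whereas each beta gene is a single exon. CTCF, a zinc finger protein that anchors chromatin loops together with cohesin, binds most of these promoters at a conserved element around the letters CGCT and brings them to distant enhancers. The resulting proteins sit on the surface of neurons and let a neuron tell its own branches from those of others, and many of the promoters are methylated and silent in tumors.

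MDA-MB-231, a mesenchymal-like line from a human breast tumor that lacks the estrogen and progesterone receptors, had been made to carry stably either a control lentivirus (NC, 3 samples) or 1 with the whole coding sequence of CTCF (CTCF-OE, 3 samples). All 6 samples were the same cell line, and the promoter that drives the insert and whether clones or pools of cells were used are not given in the sources used here. Total RNA was read on Affymetrix PrimeView arrays. Whether the 3 samples of a group were cultured separately is not stated, and p-values below rest on a spread that may be technical.

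The RNA of CTCF itself was not higher in the CTCF-OE-labelled arrays. The single CTCF probe set read 463, 442 and 489 in NC and 399, 388 and 399 in the CTCF-OE-labelled arrays, so all 3 were lower without overlap. The log2 fold change was -0.23 (standard error 0.045, adjusted p = 0.0575 from limma over all genes), and the exact two-sided permutation test over arrays gave p = 0.1, the smallest value that 3 against 3 allows. The files do not say which stretch of the transcript it covers, so it is not known whether it can read the transgene. Every direction below is therefore that of the CTCF-OE labels relative to NC.

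The array medians lay between 83.4 and 84.5. Of 8 genes that mark MDA-MB-231, all 8 read above the array median, with mean intensities of 491 to 13969 (VIM, CD44 and CAV1 among them). Of these, EGFR was lower in the CTCF-OE-labelled arrays (601 against 460, log2 fold change -0.38, adjusted p = 0.0182 from limma). As a contrast, 8 luminal and hormone receptor genes were listed beforehand as low or absent in this line. Of these, PGR (8.31 against 8.72), CDH1 (13.8 against 14.9), ESR1, FOXA1 and TFF1 read below the array median. ERBB2 (308 against 295), GATA3 (346 against 334) and EPCAM (458 against 453) read above it, so they do not serve as absent genes here. None of these 8 passed the test.

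The promoter elements are shown first, since they are the sites at which CTCF is known to act in these genes. RefSeq windows of 300 bases (250 before and 50 after the start site, GRCh38.p14) were at hand for 47 of the 53 members, all on the plus strand of chromosome 5. Each line below gives 26 bases around the element 5′ to 3′, with the letters CGCT in capitals, for members of each cluster whose values are described further on.
PCDHA4, chr5:140806981-140807006: gagccacatgatgtCGCTctttacca
PCDHA10, chr5:140855843-140855868: aagccaccggatgtCGCTgtcgtcca
PCDHB5, chr5:141135181-141135206: aggacgcctggtggCGCTgcaggcta
PCDHB9, chr5:141187076-141187101: aagccacaaggtggCGCTgcagactg
PCDHB10, chr5:141192301-141192326: aggccacacggtggCGCTgcaggcta
PCDHB12, chr5:141208645-141208670: gagacgcgtggtggCGCTgcaggata
PCDHB13, chr5:141213867-141213892: aggacgcgtggtggCGCTgcaggata
PCDHB14, chr5:141223265-141223290: gagacacatggtggCGCTacaggata
PCDHB15, chr5:141245316-141245341: acaacgcatggtggCGCTgcaggcta
PCDHGB1, chr5:141350027-141350052: caacctctgggcgcCGCTgtcgacca
PCDHGA7, chr5:141382651-141382676: aggactcacagcgcCGCTgttcacca
PCDHGB4, chr5:141387619-141387644: ctgactctgggcgcCGCTgttggcca
PCDHGB5, chr5:141397865-141397890: ctgactctgggcgcCGCTgttggcca

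The letters around CGCT differed by cluster. CGCT itself, searched on both strands, was in 12 of 13 alpha, 14 of 14 beta and 20 of 20 gamma promoters, but also in 70.0% of all 35116 windows. The longer run GGTGGCGCT was in 13 of 14 beta promoters, in no alpha or gamma promoter and in 0.501% of all windows, and the beta promoter without it was that of PCDHB1. ATGTCGCT was in 9 of 13 alpha promoters, in none of the others and in 0.234% of all windows. GCCGCTGT was in 11 of 20 gamma promoters, in no alpha or beta promoter and in 1.63% of all windows. The longer runs overlap CGCT and were spelled out after the windows had been read, so they describe these promoters and are not tests. CGCT in these elements lay a median of 48 bases before the start site in 9 alpha genes, 61 in 13 beta genes and 65 in 11 gamma genes. No window was at hand for PCDHA3, PCDHA13, PCDHB6, PCDHB11, PCDHGA12 and PCDHGC5.

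The clustered protocadherins were dim in this line. Their mean intensities over the 6 arrays lay between 7.64 and 88.8 with a median of 20.6, against a median of 117 over all 18155 genes. As a scale for unused genes, 341 olfactory receptor genes had a median of 15.7 and a 95th percentile of 48.6. Only 8 members read above that percentile, namely PCDHA3, PCDHA4, PCDHA11, PCDHB9, PCDHB13, PCDHB14, PCDHGB4 and PCDHGB5, and PCDHB13 alone exceeded the median of all probe sets, 84.0. ESR1, listed above as low or absent, had a mean of 57.3, also past the 95th percentile of the olfactory receptor genes. Passing it therefore does not show that a gene is used. Intensities of different probe sets are not amounts of RNA on a common scale, so an order of members by intensity is a description of probe sets only.

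**Figure D1:**
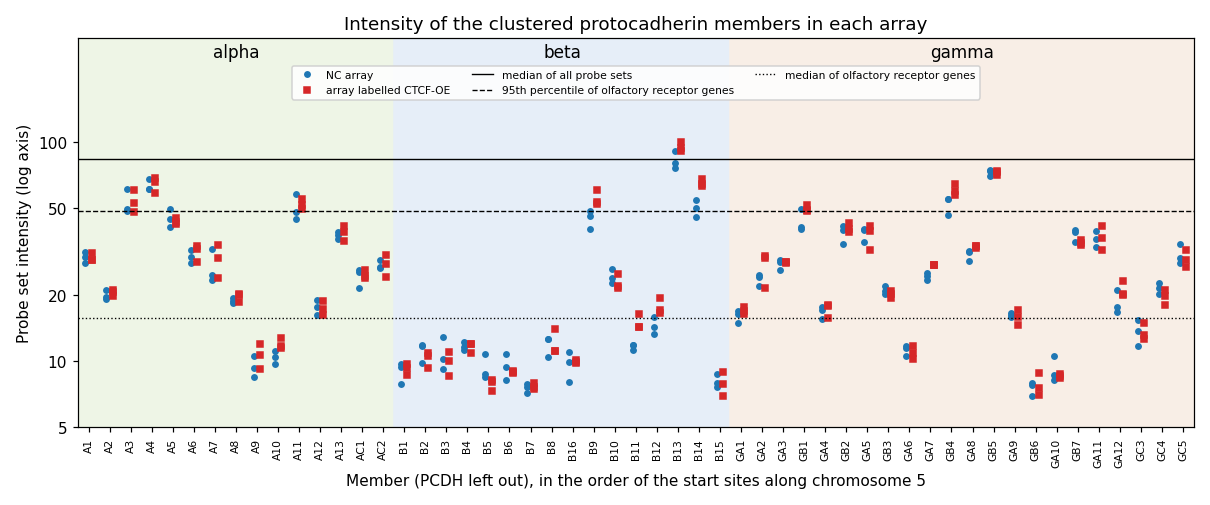
Intensity of the 53 members (log axis) in the 3 NC arrays (circles) and the 3 CTCF-OE-labelled arrays (squares), in the order of their start sites along chromosome 5, with the median of all probe sets (84.0) and the median and 95th percentile of 341 olfactory receptor genes (15.7 and 48.6) as lines. PCDHB13 is the only member whose mean lies above the solid line, and most beta members lie below the dotted one.

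Among the probe sets that stood for each gene, the beta genes held both the dimmest and the brightest. Alpha members read 10.1 to 64.0 with a median of 28.2, beta members 7.64 to 88.8 with a median of 11.2, and gamma members 7.68 to 72.9 with a median of 25.7. The dimmest 20% of the array ended at an intensity of 16.4, and 13 alpha, 4 beta and 17 gamma members read above it. Within gamma, the 7 B-type genes had a median of 39.6 and the 12 A-type genes a median of 22.6. The 5 C-type genes, which stand last in the alpha and gamma clusters and are expressed in neurons more evenly than the others, read 13.6 to 30.1.

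Few of the members differed between the groups. Over the 53 members the median log2 fold change was 0.03 (33 above 0 and 20 below), beside 0.00 over all genes. No member combined an adjusted p below 0.05 with more than a 1.3-fold change, beside 0.545% of all genes in either direction. At an adjusted p under 0.05 alone, PCDHB14 and PCDHB11 rose and none fell, or 3.77% of the members beside 2.13% of all genes (0.733% rising, 1.39% falling). At an unadjusted p under 0.05, 10 members were higher (18.9%) and 1 lower, beside 7.95% and 9.28% of all genes. Most genes on the array were brighter than the members, and bright genes passed more often. Among the 7957 genes within the members' range of intensity, 0.716% passed the adjusted threshold in either direction and 5.77% were higher at an unadjusted p under 0.05. Both shares are lower than those of the members, which is given as a description with no test. The 95% interval of the change lay within 1.3-fold in both directions for 40 of the 53 members, 13 alpha, 9 beta and 18 gamma. For the other 13 members the interval reached beyond 1.3-fold, so a change of that size was not excluded. Among these are PCDHB11 (0.19 to 0.47) and PCDHB14 (0.22 to 0.54), whose intervals lay above 0.

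**Figure D2:**
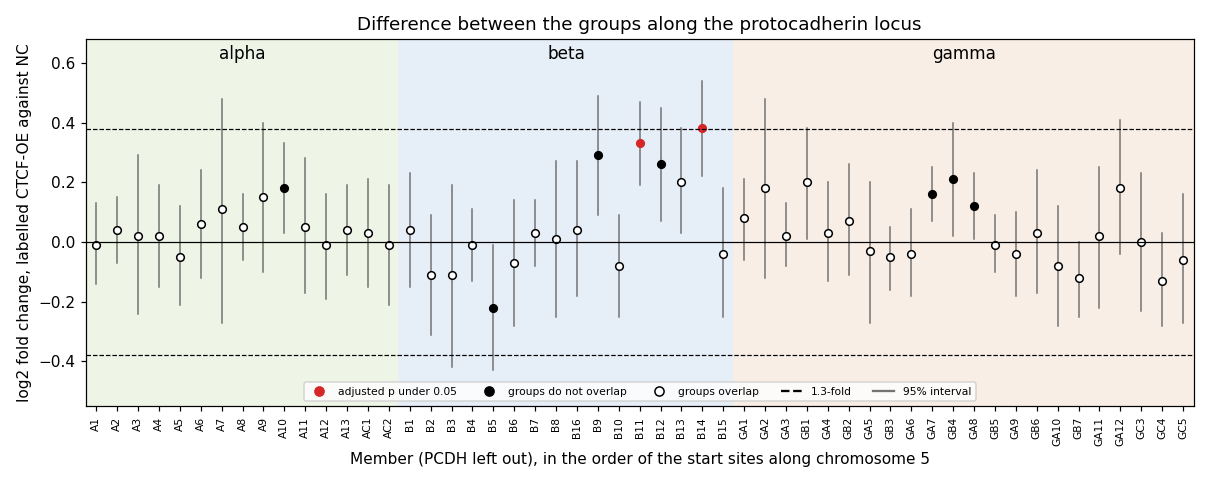
Log2 fold change of each member with its 95% interval from limma, CTCF-OE-labelled arrays against NC, in locus order. Red points (PCDHB11 and PCDHB14) had an adjusted p under 0.05, filled points are members whose groups did not overlap, and the dashed lines mark 1.3-fold. The alpha values stay between -0.05 and 0.18, while the beta values run from -0.22 to 0.38.

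The spread of the changes differed between the clusters more than their medians did. The median log2 fold change was 0.04 for alpha, 0.02 for beta and 0.02 for gamma, and its standard deviation over the members was 0.061, 0.18 and 0.10, beside 0.11 over all genes. The median standard errors of single genes were 0.073, 0.082 and 0.073. Groups did not overlap, with the CTCF-OE-labelled arrays higher, in 1 alpha, 4 beta and 3 gamma members (15.1% of the 53, beside 11.4% of all genes and 6.21% of those within the members' range of intensity), and lower in 1 beta member (beside 13.3%). The difference between the clusters was not tested, since the members are not replicates and some probe sets may read more than 1 of them. The beta median is not settled in sign, as it was -0.02 without NC replicate 3 and 0.05 without NC replicate 1.

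Among the beta genes, whose single exons encode whole proteins without a shared constant part, PCDHB14 changed most. Its only probe set read 50.1, 45.7 and 54.6 in NC and 64.4, 63.4 and 68.2 in the CTCF-OE-labelled arrays. All 3 of the latter were higher than any NC array. The log2 fold change was 0.38 (standard error 0.068, 95% interval 0.22 to 0.54, adjusted p = 0.0472 from limma), just under the 1.3-fold threshold. This rests on the 1 added to each intensity before the log, since with nothing added the log2 fold change was 0.39, past that threshold, with an adjusted p of 0.0518. PCDHB11 read 11.9, 11.9 and 11.3 in NC and 16.4, 14.3 and 14.3 in the CTCF-OE-labelled arrays, again without overlap. Its mean of 13.4 lay below the olfactory receptor median of 15.7 and within the dimmest 20% of the array. Its log2 fold change was 0.33 (standard error 0.059, adjusted p = 0.0445 from limma). This probe set ends in _x_at, which the maker gives to probe sets that may also bind other transcripts. The other PCDHB11 probe set read 12, 11.3 and 10.6 against 11, 10.9 and 12.1, a log2 fold change of 0.00.

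Neither call held with every array left out in turn. PCDHB11 had an adjusted p between 0.091 and 0.118 in limma when any 1 array was left out, with its log2 fold change between 0.27 and 0.36. PCDHB14 had an adjusted p of 0.13 without NC replicate 1, 0.0869 without NC replicate 2, 0.147 without CTCF-OE replicate 1, 0.138 without CTCF-OE replicate 2 and 0.163 without CTCF-OE replicate 3. Without NC replicate 3 its log2 fold change was 0.44 with an adjusted p of 0.0458, and it then passed the 1.3-fold threshold as well. Other scalings ended the PCDHB14 call narrowly, with an adjusted p of 0.0585 after quantile normalization and 0.0511 with arrays centred on the median in limma, and the mean of both PCDHB11 probe sets gave a log2 fold change of 0.17 (adjusted p = 0.0909).

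The 2 genes stand in a run of neighbours, from PCDHB9 to PCDHB14, in which 5 of 6 read higher. This run was picked after its values had been seen, and it is given as a description. PCDHB9 read 46.0, 40.3 and 48.6 in NC and 60.3, 52.2 and 53.2 in the CTCF-OE-labelled arrays, without overlap (log2 fold change 0.29, standard error 0.083, adjusted p = 0.142 from limma). PCDHB12 read 14.4, 16 and 13.4 against 19.4, 17.1 and 16.7, also without overlap (log2 fold change 0.26, adjusted p = 0.159 from limma). In PCDHB13 the groups met, since its first NC array lay above the lowest CTCF-OE-labelled array. It read 91.5, 80.2 and 76.0 against 94.0, 91.2 and 100 (log2 fold change 0.20, adjusted p = 0.228 from limma). PCDHB10, inside the run, went the other way with 22.9, 24.0 and 26.3 against 25.1, 21.7 and 22.1, and its groups overlapped (log2 fold change -0.08, adjusted p = 0.611 from limma). The median of the 6 was 0.28.

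**Figure D3:**
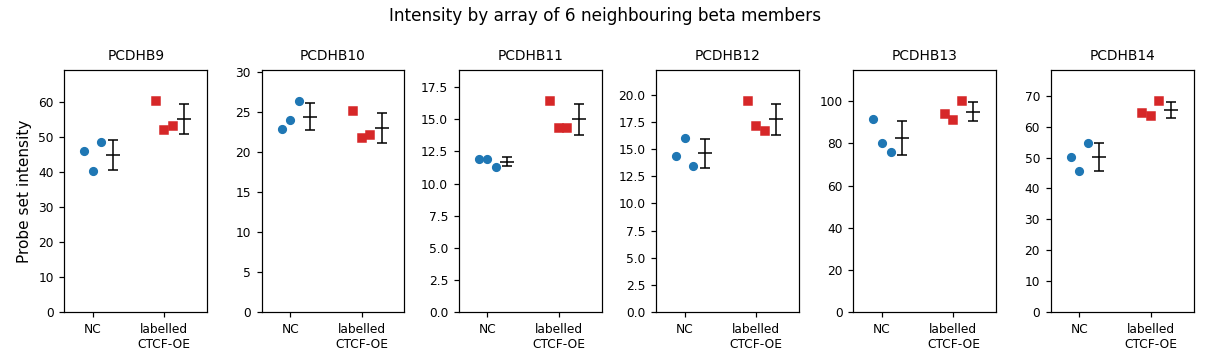
Intensity of PCDHB9 to PCDHB14 in each array, in locus order, for the NC arrays (circles) and the CTCF-OE-labelled arrays (squares), with mean and SD (n = 3) beside them and each axis starting at 0. The groups are apart in PCDHB9, PCDHB11, PCDHB12 and PCDHB14 and overlap in PCDHB10 and PCDHB13.

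GGTGGCGCT was in 13 of 14 beta promoters, so its presence could not tell members of this run apart, and no conclusion is drawn from it. PCDHB10, which was not higher, holds GGTGGCGCT like PCDHB9, PCDHB12, PCDHB13 and PCDHB14, and PCDHB11 had no window to read. The last beta gene, PCDHB15, holds it as well and read 7.62, 8.80 and 7.98 against 6.93, 7.92 and 8.96, a log2 fold change of -0.04 with groups that overlap. Of the 8 beta genes at the start of the cluster, PCDHB1 to PCDHB8, none passed the test, and their log2 fold changes lay between -0.22 and 0.04 at intensities of 7.64 to 12, below the olfactory receptor median. The last 8, from PCDHB16 on, had a median of 0.23 and a range of -0.08 to 0.38 at intensities of 8.03 to 88.8. Of these, PCDHB16 (mean intensity 9.81, log2 fold change 0.04) and PCDHB15 (8.03, -0.04) were as dim as the first 8. PCDHB11 (13.4, 0.33) and PCDHB12 (16.2, 0.26) were brighter than the first 8 but still in the dimmest 20% of the array. How intensity bears on the difference between the first 8 and the last 8 was not tested.

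The lowest beta value was that of PCDHB5. It read 8.52, 8.75 and 10.8 in NC and 8.23, 7.33 and 8.06 in the CTCF-OE-labelled arrays, all 3 of which were lower than the NC arrays. The log2 fold change was -0.22 (standard error 0.088, adjusted p = 0.277 from limma). PCDHB2 (-0.11, adjusted p = 0.567) and PCDHB3 (-0.11, adjusted p = 0.699) followed, both with overlapping groups.

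Other probe sets of the same genes gave smaller values in most of the run. The second PCDHB9 probe set read 7.56, 8.93 and 7.49 against 8.24, 7.72 and 8.26 (log2 fold change 0.02), and the second PCDHB12 probe set had a log2 fold change of 0.03. PCDHB13 had 5 probe sets, with log2 fold changes of 0.20, 0.22, 0.02, 0.08 and -0.19 from limma over all probe sets. Of these only the dimmest, at 8.95, 7.69 and 8.41 against 10.3, 10.4 and 8.98, had groups that did not overlap. PCDHB14 had no other probe set, so its change has no second reading. Over all members with several probe sets, 22 of 32 further probe sets had the sign of the one used, 1 of 3 in alpha, 11 of 14 in beta and 10 of 15 in gamma.

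In the gamma cluster, whose B-type and A-type exons alternate along the locus, the highest log2 fold changes were those of PCDHGB4 and PCDHGB1. The A-type PCDHGA12 and PCDHGA2 followed closely at 0.18 each, with groups that overlap. Further PCDHGA12 probe sets had 0.11 and 0.26, both without overlap, and the further PCDHGA2 probe set had -0.12. PCDHGB4 read 55.4, 55 and 46.6 in NC and 64.8, 57.2 and 59.7 in the CTCF-OE-labelled arrays, without overlap (log2 fold change 0.21, standard error 0.079, adjusted p = 0.244 from limma). Its second probe set had a log2 fold change of 0.16. PCDHGB1 read 49.5, 40.4 and 41.2 against 52.0, 48.8 and 49.2, with the highest NC array among the others (log2 fold change 0.20, adjusted p = 0.275 from limma). Its second probe set was without overlap, at 17.8, 20 and 17.6 against 22.8, 20.4 and 23.0 (log2 fold change 0.24, adjusted p = 0.132 from limma over all probe sets).

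The brightest gamma member read nearly the same in both groups. PCDHGB5 read 75, 74.0 and 70.3 in NC and 72.9, 74.2 and 71.2 in the CTCF-OE-labelled arrays, a log2 fold change of -0.01 with a 95% interval of -0.10 to 0.09. Its printed 26 bases are the same letters as those of PCDHGB4. PCDHGB2 read 41.7, 39.8 and 34.3 against 38.8, 40.3 and 42.7 (log2 fold change 0.07, adjusted p = 0.673 from limma).

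The smallest unadjusted p in gamma, 0.00408 from limma, was that of PCDHGA7, named here for its tight values after they had been seen. It read 25.3, 24.6 and 23.5 in NC and 27.6, 27.4 and 27.6 in the CTCF-OE-labelled arrays, without overlap. The log2 fold change was 0.16 (standard error 0.038, adjusted p = 0.092), from a probe set ending in _x_at. PCDHGA8 was the third gamma member without overlap, at 28.8, 31.6 and 32.0 against 33.8, 33.7 and 33.1 (log2 fold change 0.12, adjusted p = 0.261 from limma). The second PCDHGA8 probe set, which was dimmer, had a log2 fold change of 0.05 with groups that overlap. At the low end, PCDHGC4 read 21.6, 22.7 and 20.3 against 18.1, 19.8 and 21.2 (log2 fold change -0.13, adjusted p = 0.396), and PCDHGB7 read 39.0, 35.1 and 39.9 against 35.7, 33.9 and 34.6 (log2 fold change -0.12, adjusted p = 0.304). Both had groups that overlap. The gamma medians were 0.03 for A-type and 0.03 for B-type genes.

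The alpha cluster had the narrowest spread of changes. Its brightest probe set, that of PCDHA4, read 68.2, 61.2 and 61.1 in NC and 68.9, 66 and 58.5 in the CTCF-OE-labelled arrays (log2 fold change 0.02, 95% interval -0.15 to 0.19). PCDHA3 read 61.0, 48.7 and 49.7 against 53.1, 48.2 and 60.5 (log2 fold change 0.02, 95% interval -0.24 to 0.29). The 3 arrays of each group spread more widely here than the groups differed. PCDHA11 read 58.2, 48.2 and 44.9 against 51.6, 49.6 and 55 (log2 fold change 0.05), and PCDHA5 read 41.2, 44.9 and 49.5 against 42.3, 45.2 and 43.2 (log2 fold change -0.05). All 4 had groups that overlap, with adjusted p between 0.778 and 0.943 from limma. The only alpha member without overlap was PCDHA10, at 9.75, 11.2 and 10.5 against 12.8, 11.7 and 11.5 (log2 fold change 0.18, adjusted p = 0.205 from limma), again from a probe set ending in _x_at. PCDHAC1 and PCDHAC2, the C-type genes of this cluster, had log2 fold changes of 0.03 and -0.01.

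Probe sets that read several members gave no change past the test either. The annotation assigned 6 probe sets to all 15 alpha genes, whose transcripts share constant exons, and none to the gamma genes together. These 6 read 6.25 to 30.9, with log2 fold changes between -0.23 and 0.11 and a lowest adjusted p of 0.245 from limma over all probe sets. The brightest of them read 33.9, 27.9 and 33.0 in NC and 28.7, 31.4 and 30.2 in the CTCF-OE-labelled arrays, so the groups overlap (log2 fold change -0.06). The 1 without overlap was lower, at 9.66, 10.5 and 10.2 against 9.50, 8.88 and 9.29 (log2 fold change -0.12, adjusted p = 0.245). The probe set of PCDHA2 with PCDHA3 read 5.99, 6.00 and 5.95 against 6.37, 6.14 and 6.79 (log2 fold change 0.09), near the lowest intensities of the array. That of PCDHB2 with PCDHB3 read 9.78, 9.78 and 10.8 against 10.7, 10.4 and 10.4 (log2 fold change 0.05).

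**Figure D4:**
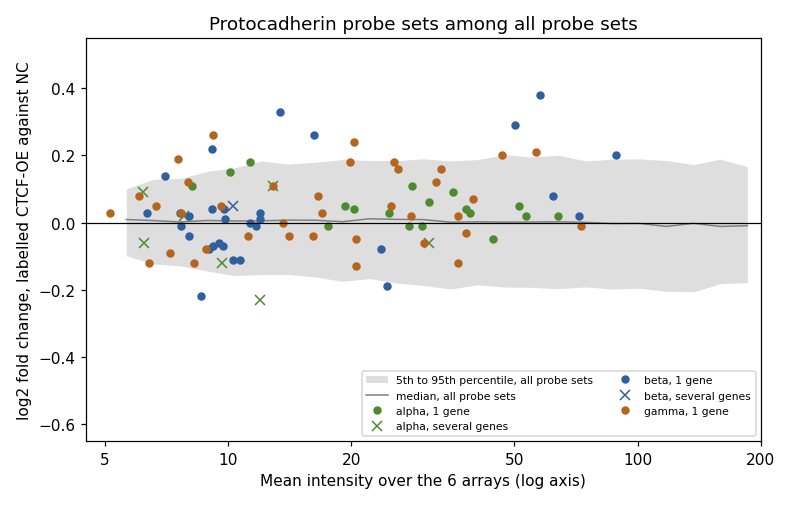
Log2 fold change against mean intensity (log axis) for the 85 single-gene protocadherin probe sets (points) and the 8 shared ones (crosses), over the 5th to 95th percentile of all 49293 probe sets at that intensity (grey band) and their median (grey line). All points but the brightest one of PCDHB13 lie below the array median of 84.0. At or above the upper edge of the band lie points of PCDHB7, PCDHB9, PCDHB11, PCDHB12, PCDHB13, PCDHB14, PCDHGA11, PCDHGA12, PCDHGB1 and PCDHGB4, and at or below its lower edge points of PCDHB5, PCDHB13 and all alpha genes together.

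Counted over probe sets rather than genes, 2 of 85 rose at an adjusted p under 0.05, both beta, and none fell, beside 0.803% and 1.27% of all probe sets. Groups did not overlap in 15 higher and 1 lower of the 85, or 18.8%, beside 24.4% of all probe sets in either direction, most of which were brighter. For the genes, the same count was 17.0% of the members, 24.7% of all genes and 12.1% of those within the members' range of intensity. By the maker's endings, 25 of the 85 were of the plain _at kind, 29 could read several transcripts of 1 gene (_a_at), 12 could read several genes (_s_at) and 19 might bind other transcripts (_x_at). How far probe sets of 1 member also read RNA of its neighbours was not tested.

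Read by its brightest probe set, no gene known to act on the clusters or lying next to them passed the test. CTCF, cohesin and other factors known to act on protocadherin promoters (22 of 23 read) had a median log2 fold change of 0.02, and none passed the test. Groups did not overlap in 9 of the 22, 5 higher and 4 lower, or 40.9% beside 24.7% of all genes. Of the 22, 21 read above the array median. The share over all genes was only 12.1% within the dimmer range of the members, so 24.7% is a low scale for a bright list. No excess is read from it. Apart from CTCF, the farthest from 0 were SMC3, a core ring subunit of cohesin (1594 against 1771, log2 fold change 0.15, adjusted p = 0.0879 from limma), and WIZ, a zinc finger protein that works with CTCF and cohesin (227 against 207, -0.13, adjusted p = 0.245). Of 57 dimmer probe sets of these genes, 4 passed in limma over all probe sets, beside 0.803% of all probe sets rising and 1.27% falling. They were picked out because they passed. Those of SMC1A, a further ring subunit of cohesin, had log2 fold changes of 0.38 and 0.33 (adjusted p = 0.0251 and 0.0142), that of RAD21, which closes the ring, 0.24 (adjusted p = 0.0332), and that of ESCO1, which acetylates cohesin, -0.36 (adjusted p = 0.0383). The brightest probe sets of these 3 genes had 0.03, 0.07 and -0.11. Of the genes that flank the clusters or lie between them, 21 of 22 were read, with a median of 0.00 and none past the test. Among these, FCHSD1 (67.0 against 58.8, -0.19, adjusted p = 0.0561), RNF14 (0.11, adjusted p = 0.35) and NDUFA2, a subunit of mitochondrial complex I (0.10, adjusted p = 0.194), were farthest from 0. Of 34 dimmer probe sets of these neighbours, 1 passed in limma over all probe sets, that of NDFIP1 (0.24, adjusted p = 0.0499). Of the neighbours, 18 read above the array median.

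Related adhesion genes did not pass the test either. The 12 non-clustered protocadherins, each with a promoter of its own outside the clusters, had a median log2 fold change of 0.04 and a range of -0.03 to 0.14, led by PCDH7 (15.8 against 17.6, adjusted p = 0.61), PCDH15 (0.10) and PCDH12 (0.09). Only PCDH1 among them read above the array median (97.4 against 99.4). Classical cadherins and catenins (23 of 26 read) had a median of 0.00, with CDH7 (0.15), CDH6 (-0.14) and CDH18 (0.11) farthest from 0, while the bright CDH11 (1417 against 1435) had a log2 fold change of 0.02. Enzymes that cut protocadherins and proteins that signal from them (14 of 16 read) had a median of 0.01. FYN, a Src family kinase (-0.12), ADAM10, the sheddase that releases protocadherin ectodomains (0.10), and AXIN1 (-0.09) were the farthest from 0 in that list.

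Neuronal markers were followed because the clustered protocadherins are best known from neurons. None of the 10 passed the test, with a median log2 fold change of 0.02 and a range from MAP2 (-0.25, adjusted p = 0.261) to RBFOX3 (0.25, adjusted p = 0.444), and SNAP25 came next (0.17). Their summed intensity was 1144 to 1265 in NC and 1283 to 1288 in the CTCF-OE-labelled arrays, without overlap, and 4 of the 10, TUBB3 and GAP43 among them, read above the array median. TUBB3, a neuronal tubulin that tumor lines also express, was the largest term of the sum (531 against 577, log2 fold change 0.12, adjusted p = 0.136 from limma), while MAP2, STMN2 (-0.08), SYT1 (-0.03) and ELAVL4 (-0.02) lay below 0. None is at 0, since every probe set has a positive value, and the part of this difference in the sum in the beta values was not tested. In whole-culture RNA, fewer cells that use a promoter and less RNA in each cell cannot be told apart.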

How the data were processed

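RNA of 6 MDA-MB-231 samples (3 NC, 3 CTCF-OE) had been labelled as biotinylated cRNA. The deposited values are probe set intensities on a linear scale, which the authors had already brought to nearly equal distributions. Software and normalization are not given in the sources used here. Gene names came from the platform annotation (45064 probe sets with 1 symbol, 1756 with several, 2473 with none listed). After 102 control probe sets were set apart, log2(intensity + 1) was fitted with limma 3.58.1 in R 4.3.3, which slightly understates changes of dim genes, with Benjamini-Hochberg adjustment over 49293 probe sets and, separately, over 18155 genes. The design had provided for linear as well as log2 values. A gene was called at an adjusted p below 0.05 with more than a 1.3-fold change. No detection calls were used, and precision is limited by 3 arrays per group.

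The members and lists were chosen with earlier results of these data known. Named with values were CTCF, members at an adjusted p under 0.05, the 4 brightest of each cluster, the 5 largest rises and falls, shared probe sets, and from each list the genes past the test or else the 3 farthest from 0. Others were chosen after their values were seen. The procedure was tested on simulated data. It recovered 86 of 100 changes of 1.5-fold, 96 of 100 of 2-fold and 66 of 100 of 1.5-fold in dim probe sets. Changes as small as those of the members were not simulated. Alternatives changed the added constant, scaling, filter on dim probe sets, variance model, test, fold threshold, replicate block, probe set per gene, and each array left out. The 3 pseudogene probe sets were fitted among all probe sets but not counted as members. Their log2 fold changes were 0.12 and 0.02 for PCDHB17P and 0.01 for PCDHB18P (lowest adjusted p = 0.352 from limma). List genes without a probe set of their own were not analysed here. Plots used matplotlib 3.10.9 (Python 3.11.15).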

Additional observations from a re-analysis of the deposited data

How the results depend on the processing

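No alpha member and no gamma member passed an adjusted p under 0.05 under any alternative run. The methods' t-test without adjustment took 1 gamma and 3 beta members at p under 0.05. No share over all genes is given here for that count, so nothing about the members is read from it. The beta count of 2 was kept with 16 added in place of 1 and with an intensity trend, when 4.58% and 8.01% of all genes passed in place of 2.13%. It was 1 with nothing added (1.99% of all genes passed), with quantile normalization (2.3%) and with arrays centred on the median (2.08%). It was also 1 without the dimmest 20% of probe sets (4 beta members left, 3.76% of all genes passed). The same count came with the mean of all probe sets of a gene. It also came with probe sets ending in _x_at or _s_at left out (chosen after seeing the data). Neither of these settings has a share over all genes given here, and nothing is read from their counts. The beta count was 0 without the dimmest 50% (1 beta member left, 12.9% of all genes passed). It was also 0 with the methods' t-test after Benjamini-Hochberg adjustment (1.49%). With 1 array left out it was 0 to 1, beside 0.369% to 0.936% of all genes. Without a fold threshold 2 beta members were called, and with 1 array left out 0 to 1. PCDHB14 had an adjusted p of 0.0518 with nothing added and 0.141 with the adjusted t-test, where PCDHB11 had 0.129. The beta median was 0.25 and 0.20 without the dimmest 20% and 50%, and -0.02 to 0.05 with 1 array left out, when the alpha median was 0.01 to 0.06. With the array median as reference for a low level, 1 member in place of 8 lay above it. Over all probe sets 314 were called (1024 without a fold threshold, 149 with the adjusted t-test, 144 to 244 with 1 array left out, and 144, 155 and 165 without CTCF-OE replicates 1, 2 and 3). Over all genes 99 were called (386, 62 and 62 to 93). The arrays share only replicate numbers: same-numbered arrays correlated at 0.012, 0.00542 and 0.00944 after group means were removed. With the replicate number as a block, 73 probe sets and 54 genes were called. Then 0 beta members passed, beside 0.297% of all genes (PCDHB14 at an adjusted p of 0.0739, PCDHB11 at 0.104). For 13 of the 53 members the 95% interval reached beyond 1.3-fold.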
